A study of Mus musculus with 4 samples.

Results

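The transcripts of 10 genes for subunits of Polycomb repressive complex 1 (PRC1) were compared between serum and 2i ESCs. The genes are Ring1, Rnf2, Cbx2, Cbx7, Cbx8, Pcgf1, Pcgf2, Pcgf6, Bmi1 and Rybp. They were taken by symbol, through their Ensembl identifiers, and all 10 have a row among the 14533 genes of the deposited table. RNA had been sequenced from sorted mouse embryonic stem cells (ESCs) adapted for over 20 days to medium with serum or to serum-free medium with the MEK inhibitor PD0325901 and the GSK3 inhibitor CHIR99021 (2i). Both media contained the cytokine LIF. There were 2 libraries per group and 4 in all, which the sample labels place in late G1-phase, while the series description names early G1-phase. The labels name no ESC line or genotype. The study calls the replicates of each group biological replicates, and p-values measure the spread between them.

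PRC1 is a ubiquitin ligase that silences developmental genes by attaching ubiquitin to histone H2A. Every PRC1 complex pairs RING1 or RNF2 (also called RING1B), which carry the catalytic RING domain, with a PCGF protein that sets the type of complex. Canonical PRC1 contains PCGF2 or BMI1 (PCGF4) and a CBX protein that reads the H3K27me3 mark left by Polycomb repressive complex 2 (PRC2), whereas variant PRC1 contains RYBP or YAF2 in place of CBX and is recruited in other ways, for example through unmethylated CpG islands. In ESCs CBX7 is known as the main canonical reader, and other CBX proteins take over during differentiation.

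The libraries held between 18939401 and 26570098 whole reads. Protein-coding genes took 46.9% to 57.8% of the reads in both replicate 1 libraries and 66.3% to 76.3% in both replicate 2 libraries. In a principal component analysis, component 1 (54.0% of the variance) set the replicate numbers apart and component 2 (30.4%) serum from 2i. All 8 ESC markers examined were present in every library, among them Pou5f1 and Nanog. Of 12 primitive endoderm markers 3 had no row, and the summed level of those tested was 4263 to 8226 normalized counts in serum and 5215 to 6274 in 2i. Of 10 fibroblast markers 7 had no row, Col1a2 and Col3a1 included, and those tested summed to 267 to 304 in serum and 109 to 268 in 2i.

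Regulatory sequence is shown for 3 genes, namely Cbx8, which had the largest difference between the conditions, and Ring1 and Rnf2, alternative catalytic subunits whose levels lay on opposite sides. These are the 250 bases before the transcription start in RefSeq, build GRCm38.p6, all on the minus strand and read 5′ to 3′, with every CG dinucleotide in capitals.
Cbx8, chr11:119040914-119041163: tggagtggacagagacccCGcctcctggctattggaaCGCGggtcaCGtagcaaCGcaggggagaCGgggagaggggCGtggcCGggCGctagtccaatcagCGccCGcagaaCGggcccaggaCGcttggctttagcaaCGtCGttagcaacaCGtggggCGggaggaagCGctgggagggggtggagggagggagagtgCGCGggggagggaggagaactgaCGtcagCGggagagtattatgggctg
Ring1, chr17:34024681-34024930: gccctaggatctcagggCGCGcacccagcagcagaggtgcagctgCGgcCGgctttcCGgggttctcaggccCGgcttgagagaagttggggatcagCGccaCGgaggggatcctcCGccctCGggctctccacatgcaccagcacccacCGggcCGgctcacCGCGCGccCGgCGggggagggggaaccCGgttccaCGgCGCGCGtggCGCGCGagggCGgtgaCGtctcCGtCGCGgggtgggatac
Rnf2, chr1:151500992-151501241: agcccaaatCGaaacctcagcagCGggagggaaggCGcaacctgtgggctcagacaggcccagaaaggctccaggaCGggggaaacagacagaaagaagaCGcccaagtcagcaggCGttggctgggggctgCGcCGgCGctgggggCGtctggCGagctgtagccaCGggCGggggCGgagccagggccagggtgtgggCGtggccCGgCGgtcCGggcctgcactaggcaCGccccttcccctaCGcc

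The Ring1 stretch holds 30 CG dinucleotides, the Cbx8 stretch 22 and the Rnf2 stretch 20. The median over 32851 promoters of the same length was 6, and 5.94% of them hold at least 30. Promoters were given for 7 of the 10 genes, with a median of 21 CG dinucleotides and a range of 5 in Pcgf2 to 30 in Ring1; Cbx2, Pcgf1 and Rybp had none in the table. The letters CACGTG, an E-box that reads the same on both strands, are present 98 bases before the Cbx8 start, 215 before the Bmi1 start and 137 before the Pcgf2 start, so in 3 of 7 promoters against 6.02% of all. CACGTG itself holds a CG, and the share over all promoters was not matched for CG content. Other motifs searched on both strands were the E2F forms TTCCCGC as well as TTCGCGC, then TTGGCGC as well as TTGCCGC (any of them in 7.89% of all promoters), CCGGAAG for ETS factors (6.91%) and CTTTGAT for TCF factors (3.21%), and none of the 7 promoters holds one. These are matches of letters only.

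The PRC1 genes were not called different between the conditions. Levels below are normalized counts, that is gene counts divided by a size factor for each library, and differences are log2 fold changes of serum over 2i on log2(normalized count + 1), tested with limma across 13005 genes. At an adjusted p-value under 0.05, 0 of the 10 genes passed with limma, against 0.0154% of all genes tested. With edgeR (0% of all genes) and DESeq2 (1.93%) on whole reads 0 also passed, as did 0 with the replicate number as a block (1.56%). At an unadjusted p-value under 0.05 Cbx8 alone passed, as lower in serum, against 3% of all genes in that direction, and 0 were higher in serum against 2.97%. Both serum values exceeded both 2i values for Rnf2, Pcgf6 and Rybp, so for 3 of 10 genes against 20.5% of all. Both lay below the 2i values for Ring1 and Cbx8, so for 2 of 10 against 19.4%. In either direction this makes 5 of 10, against 39.9%. All 10 genes passed the filter of a mean of 50 normalized counts in either group, but Cbx8 passed through 2i alone, so its difference was in part required by the filter. The median log2 fold change over the 10 genes was 0.30, against 0.0047 over all genes. It was 0.13 without 2i replicate 1, and -0.046 with edgeR and -0.036 with DESeq2, where the median over all genes was -0.073 and -0.062.

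**Figure D1:**
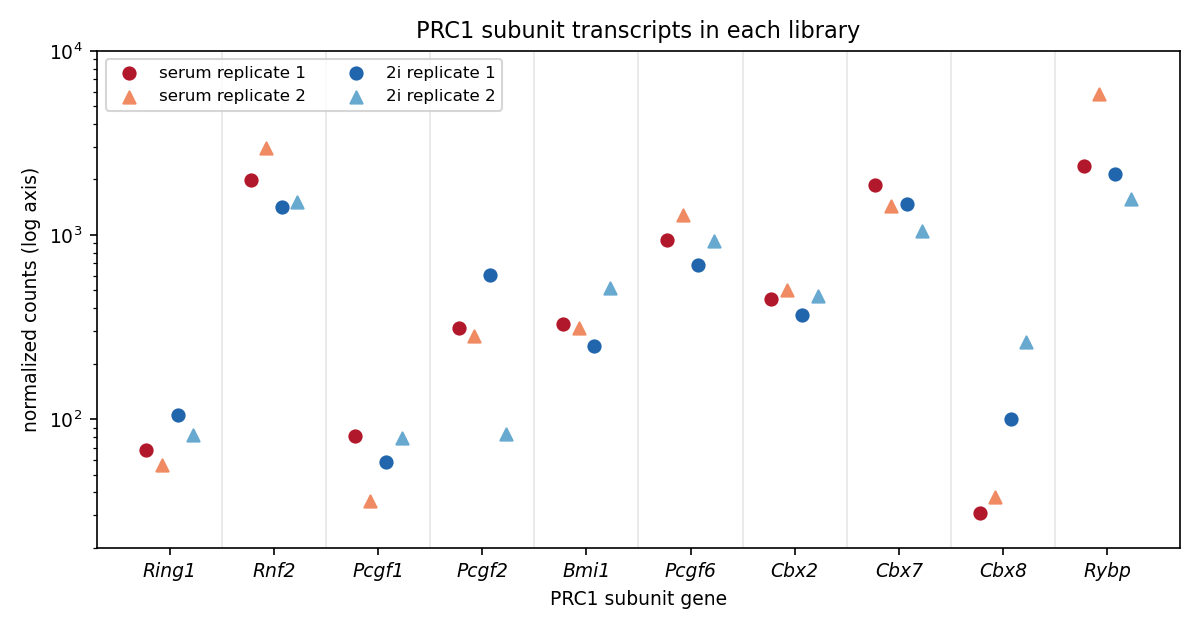
Normalized counts (log axis) of the 10 PRC1 subunit genes in each of the 4 libraries, with circles for replicate 1 and triangles for replicate 2, red for serum and blue for 2i. The serum and 2i points do not overlap for Ring1, Rnf2, Pcgf6, Cbx8 and Rybp, and the 2i points of Pcgf2 lie far apart, at 606 and 83.4.

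The catalytic subunits were read mainly as Rnf2. Rnf2 (ENSMUSG00000026484, mm9 chromosome 1, 153316536 to 153347953, minus strand) had 1985 normalized counts in the first serum library and 2966 in the second, compared with 1414 and 1505 for 2i in the same order (kept throughout). Its serum values were both above its 2i values, and the serum replicates lay further apart than the 2i replicates. The level was 1.66-fold higher in serum (95% interval 0.787 to 3.51; log2 fold change 0.73 ± 0.45 SE; adjusted p-value from limma 0.753). Its transcript has a GC content of 39.1%, and after GC content and length were taken out of each library the log2 fold change was 0.32. It was 0.44 without serum replicate 2.

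Ring1 (ENSMUSG00000024325, chromosome 17, 34157737 to 34161625, minus strand) was scarce, with normalized counts of 68.0 and 56.4 with serum against 105 and 82.5 with 2i. Here both serum values were below both 2i values. The log2 fold change was -0.58 (SE 0.72, 95% interval -2.32 to 1.17; adjusted p-value from limma 0.860), and it was -0.22 after the correction for GC content and length, the GC content of this transcript being 60.7%. Levels of different genes can be compared per length only, and the exons of Ring1 span 3.24 kb and those of Rnf2 3.03 kb. Per kilobase, Ring1 made up 3.10% and 1.74% of the Ring1 and Rnf2 total with serum, compared with 6.48% and 4.86% with 2i. Its share was thus below the 2i values in both serum libraries, a comparison within each library that does not depend on the scaling between libraries. The shares were not corrected for GC content, in which the transcripts of Ring1 and Rnf2 differ. Shares were not tested, because the smallest two-sided p that an exact permutation test allows for 2 libraries against 2 is 0.333.

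The readers of H3K27me3 had different levels, with Cbx7 the most abundant and Cbx8 the least. Cbx7 (ENSMUSG00000053411, chromosome 15, 79746237 to 79801549, minus strand) had normalized counts of 1860 and 1440 with serum against 1477 and 1049 with 2i. The groups overlapped, since serum replicate 2 lay below 2i replicate 1. The log2 fold change was 0.39 (SE 0.45, 95% interval -0.68 to 1.47; adjusted p-value from limma 0.842), and it ranged from 0.15 without 2i replicate 2 to 0.64 without 2i replicate 1. Cbx2 (ENSMUSG00000025577, chromosome 11, 118884276 to 118892584, plus strand), a reader that also compacts chromatin, had 446 and 500 with serum against 365 and 465 with 2i. These groups overlapped as well, and the replicates differed by about as much as the conditions (log2 fold change 0.20 ± 0.44 SE, 95% interval -0.87 to 1.26; adjusted p-value from limma 0.927). Leaving out 2i replicate 1 gave 0.023 for Cbx2, and leaving out 2i replicate 2 gave 0.37.

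Cbx8 (ENSMUSG00000025578, chromosome 11, 118897619 to 118902283, minus strand), a CBX gene associated with differentiating cells, had normalized counts of 31.0 and 37.9 with serum against 99.7 and 263 with 2i. Both 2i values were above both serum values, and the 2i replicates were far from each other. The level was 4.62-fold higher in 2i (95% interval 1.17 to 18.2). On the log2 scale the difference was -2.21 (SE 0.82; p-values from limma 0.0338 unadjusted and 0.753 adjusted). Leaving out 2i replicate 2 gave -1.51 and leaving out 2i replicate 1 gave -2.90, and it was -2.04 after the correction for GC content and length. The adjusted p-value was 0.692 with edgeR and 0.118 with DESeq2. Over all genes tested, 1319 passed the filter through 2i alone and 431 through serum alone, so genes scarce in serum and not in 2i were the more frequent kind. Of 7 primitive endoderm markers tested, 4 had a log2 fold change above 0 and 3 below, with a median of 0.25. Gata4 and Gata6, regulators of that lineage, passed the filter through 2i alone as Cbx8 did, with 13.0 and 42.8 normalized counts (Gata4) and 5.0 and 16.5 (Gata6) in the serum libraries, compared with 152 and 169 and with 87.2 and 27.2 in the 2i libraries. The groups of the other 5 markers overlapped, 4 of which had a log2 fold change above 0. The part of such cells in the Cbx8 values was not tested, and in bulk RNA fewer cells with a transcript cannot be told apart from less of it per cell.

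**Figure D2:**
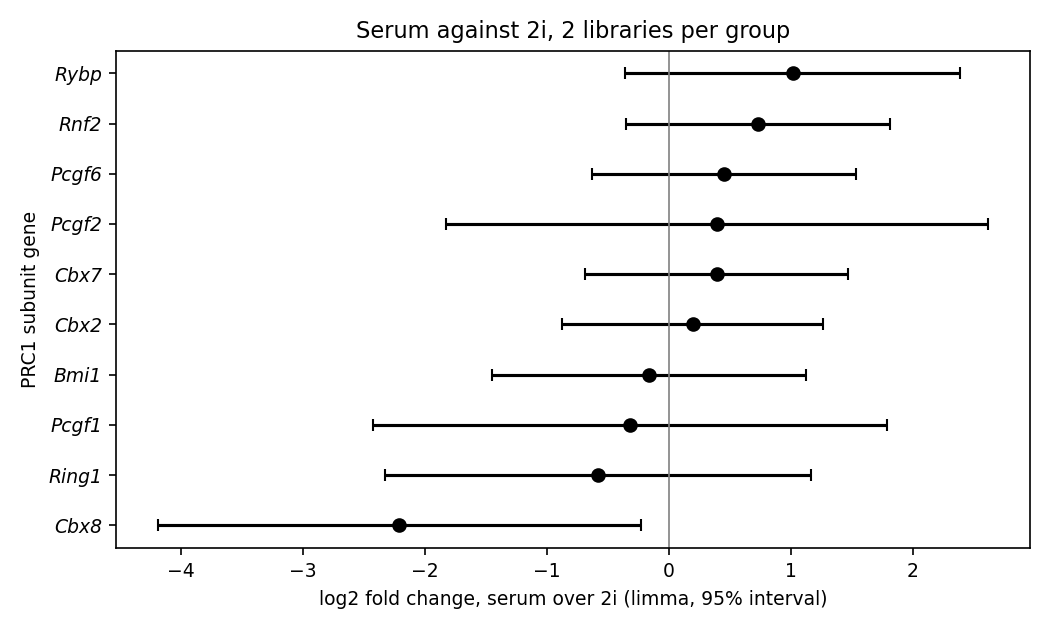
Log2 fold change of serum over 2i for each PRC1 subunit gene (points) with its 95% interval from limma (bars), ordered by size. The interval of Cbx8, -4.18 to -0.23, leaves out 0, and those of the other 9 genes include it.

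On chromosome 11 the end of Cbx2 is 5.04 kb from Cbx8. Cbx8 had low counts in serum and higher ones in 2i, whereas the groups of its neighbour Cbx2 overlapped; the difference between these genes was not tested.

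Per kilobase, Cbx7 was the largest of 4 CBX transcripts in every library. It made up 65.7% and 56.7% of the summed Cbx2, Cbx6, Cbx7 and Cbx8 level with serum, compared with 61.1% and 49.4% with 2i, which overlap. Cbx8 took 1.13% and 1.54% with serum but 4.25% and 12.8% with 2i. Its share was lower in each serum library than in each 2i library. Cbx2 took 13.4% to 19.5% and Cbx6 18.3% to 24.3% over the 4 libraries, with overlapping groups.

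**Figure D3:**
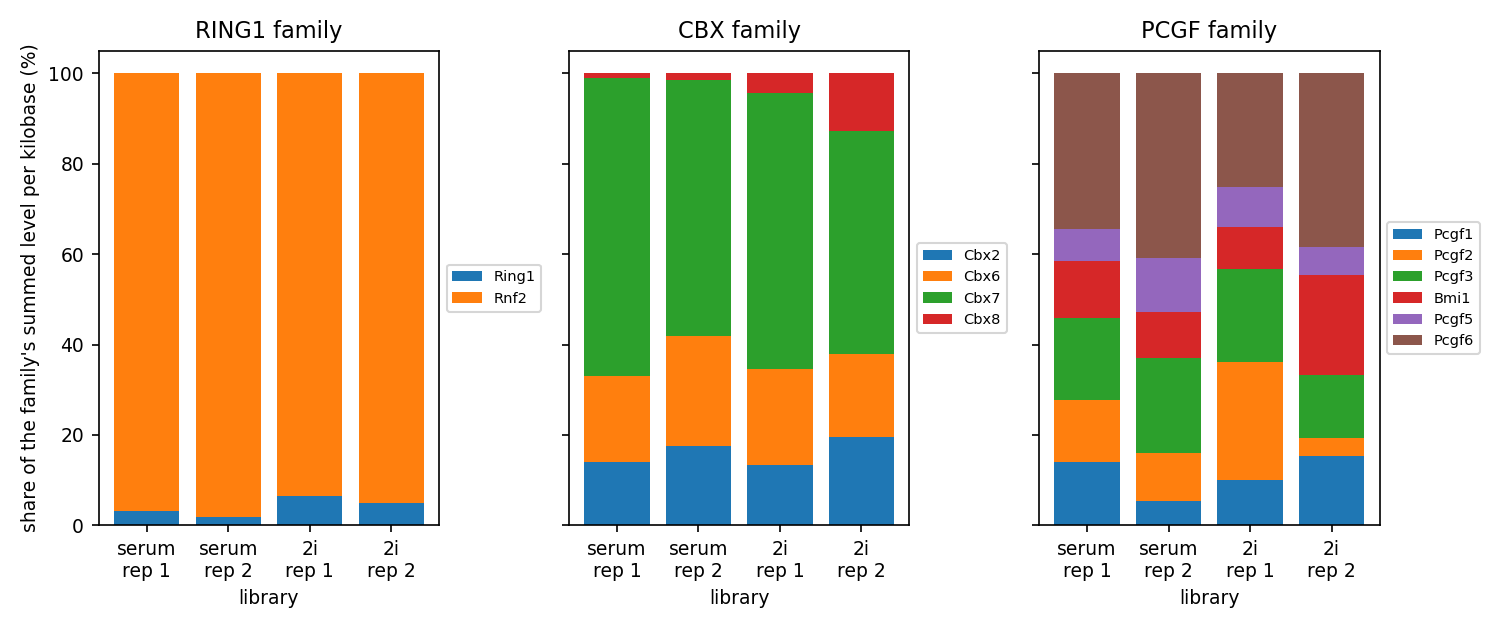
Share (%) of each gene in the summed level per kilobase of its family, 1 bar per library, for the RING1, CBX and PCGF families. Rnf2 fills at least 93.5% of its family in each library and Cbx7 at least 49.4%, while the PCGF shares vary between the 2i replicates.

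Among the PCGF genes, Pcgf2 stood out by the difference between its 2i replicates. Pcgf2 (Mel18; ENSMUSG00000018537, chromosome 11, 97550137 to 97561811, minus strand), which defines canonical PRC1 in ESCs, had normalized counts of 312 and 284 with serum against 606 and 83.4 with 2i. The serum values were close to each other and lay between the 2i values. The 2i replicates differed by 2.85 on the log2 scale, against 0.40 (SE 0.92, 95% interval -1.82 to 2.62; adjusted p-value from limma 0.929) between the conditions. The latter was 1.82 if 2i replicate 1 was left out and -1.02 if 2i replicate 2 was, so its direction rests on 1 library. It was also negative with edgeR (-0.26) and DESeq2 (-0.25).

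Bmi1 (PCGF4; ENSMUSG00000026739, chromosome 2, 18598645 to 18608256, plus strand), the paralog that can replace PCGF2, had normalized counts of 330 and 311 with serum against 248 and 517 with 2i. Its 2i replicates were on either side of the serum values and in the opposite order to those of Pcgf2. The log2 fold change was -0.16 (SE 0.53, 95% interval -1.44 to 1.12; adjusted p-value from limma 0.953), and 0.37 without 2i replicate 2.

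Pcgf6 (ENSMUSG00000025050, chromosome 19, 47108109 to 47125380, minus strand) belongs to the variant complex PRC1.6, which represses germline genes in ESCs. It had normalized counts of 935 and 1282 with serum against 690 and 926 with 2i. The groups were separate by a narrow margin, between serum replicate 1 and 2i replicate 2, and the replicates of each condition differed by about as much as the conditions (log2 fold change 0.45 ± 0.45 SE, 95% interval -0.63 to 1.53; adjusted p-value from limma 0.809). After the correction for GC content and length it was 0.18, and it was 0.23 without serum replicate 2, 0.24 without 2i replicate 1 and 0.68 without serum replicate 1. Pcgf1 (ENSMUSG00000069678, chromosome 6, 83028380 to 83030841, plus strand), the subunit of the KDM2B complex that binds CpG islands, had 81.0 and 36.0 with serum against 58.1 and 78.6 with 2i, which overlap (log2 fold change -0.32 ± 0.87 SE, 95% interval -2.42 to 1.79; adjusted p-value from limma 0.939). Leaving out serum replicate 2 turned it to 0.26, and leaving out serum replicate 1 gave -0.89.

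Among the 6 PCGF genes Pcgf6 took the largest share per kilobase in 3 of 4 libraries, with 34.4% and 40.8% with serum compared with 25.2% and 38.4% with 2i. In 2i replicate 1 Pcgf2 was slightly larger, at 26.3%. In 2i replicate 2 Pcgf2 took 4.10% and Bmi1 22%, against 9.31% for Bmi1 in 2i replicate 1. All 6 shares overlapped between the conditions.

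Rybp (ENSMUSG00000072872, chromosome 6, 100178560 to 100237435, minus strand) encodes the subunit of variant PRC1 that binds ubiquitinated H2A and stimulates the ligase. It had normalized counts of 2375 and 5797 with serum against 2131 and 1575 with 2i. Both serum values were above both 2i values, but serum replicate 1 exceeded 2i replicate 1 by only 0.16 on the log2 scale, whereas serum replicate 2 exceeded 2i replicate 2 by 1.88. The level was 2.02-fold higher in serum (95% interval 0.782 to 5.24; log2 fold change 1.02 ± 0.57 SE; adjusted p-value from limma 0.753). The log2 fold change was 0.37 without serum replicate 2, 1.66 without serum replicate 1 and 0.70 after the correction for GC content and length. Of the summed level per kilobase of Rybp and its paralog Yaf2, Rybp made up 84.9% and 93.1% with serum, compared with 81.9% and 76.9% with 2i. The Rybp share was thus higher in both serum libraries. Yaf2 had normalized counts of 178 and 181 with serum against 198 and 199 with 2i.

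Ordered by the mean level per kilobase over the 4 libraries, the genes ran from Rybp (666 normalized counts per kilobase) and Rnf2 (650) over Cbx7 (384) and Pcgf6 (235) to Cbx2 (104), Pcgf2 (93.4), Bmi1 (88.5) and Pcgf1 (72.9), with Cbx8 (29.4) and Ring1 (24.0) last. The highest was 27.7-fold above the lowest, and 50.4-fold without 2i replicate 2. Neighbours in this order overlapped in their range over libraries in 8 of 9 cases. The exception was the step from Pcgf6, at 169 or more in each library, to Cbx2, at 117 or less. The first 4 genes were above the median of all genes tested, 115 per kilobase, and the other 6 below it. With the length of the longest transcript in place of all exons, Pcgf2 and Cbx2 exchanged places, as did Cbx8 and Ring1.

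Other genes linked to PRC1 were examined as 2 lists, and whether each protein belongs to the complex was not tested. Of 8 genes listed as other canonical subunits 0 passed the adjusted threshold with limma, edgeR or DESeq2 and 0 were under 0.05 unadjusted. Both serum values were above the 2i values for 3 of the 8, against 20.5% of all genes tested, and below for 2, against 19.4%. The median log2 fold change was 0.090, but 0.43 with the filter at 200 normalized counts, from -0.35 without 2i replicate 2 to 0.33 without 2i replicate 1, -0.031 with upper quartile scaling, -0.088 with edgeR and -0.074 with DESeq2. Phc1, the main polyhomeotic gene in ESCs whose protein joins PRC1 complexes together, had normalized counts of 2693 and 2312 with serum against 2045 and 1261 with 2i (log2 fold change 0.64 ± 0.47 SE; adjusted p-value from limma 0.764), and its log2 fold change was 0.29 without 2i replicate 2. Its groups were separate, and it made up 87.5% and 84.0% of the Phc1, Phc2 and Phc3 level per kilobase with serum, compared with 79.6% and 79.0% with 2i. Cbx6 had 897 and 1024 with serum against 853 and 645 with 2i, and Sfmbt1 had 366 and 448 with serum against 320 and 211 with 2i, each with separate groups. Scml2 had 282 and 45.7 with serum against 322 and 541 with 2i, so its serum replicates differed by more than its conditions. Scml4 was near the filter, with 15 and 5.83 with serum against 49.8 and 53.4 with 2i. It passed through 2i alone, so its difference was in part required by the filter.

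Of 20 other subunits of variant PRC1, 0 passed the adjusted threshold with limma, edgeR or DESeq2 and 0 reached an unadjusted p-value under 0.05. Serum values were above for 4 of the 20, against 20.5% of all genes tested, and below for 3, against 19.4%. The median log2 fold change was 0.28, but -0.015 without serum replicate 2, -0.00037 without 2i replicate 1, 0.57 without serum replicate 1 and 0.029 after the correction for GC content and length. Max, which pairs with MGA to recruit PRC1.6 to E-boxes, had normalized counts of 928 and 1109 with serum against 742 and 272 with 2i. Mga itself had 5487 and 7688 with serum against 4571 and 3696 with 2i, and Cbx3, the HP1 protein of that complex, had 5874 and 10169 with serum against 3412 and 5276 with 2i. The log2 fold changes of Max, Mga and Cbx3 were 1.17, 0.66 and 0.86, with adjusted p-values from limma of 0.753, 0.763 and 0.756. After the correction for GC content and length these fold changes were 1.33, 0.19 and 0.49, and that of Max was 0.45 without 2i replicate 2. All 3 genes had separate groups with serum above. Those with serum below were Fbrsl1, a fibrosin paralog (209 and 164 with serum against 426 and 353 with 2i), Dcaf7 (891 and 1019 with serum against 1190 and 1556 with 2i) and Yaf2. Their log2 fold changes were -1.06 (SE 0.48), -0.51 (SE 0.43) and -0.15 (SE 0.50), and that of Dcaf7 was -0.32 without 2i replicate 2.

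Genes that Polycomb complexes are known to silence were examined with 2 lists. Of 70 developmental regulators 32 had no row in the table, and 28 of the other 38 passed the filter, 17 of them through 2i alone and 2 through serum alone. Because the filter then fixes the direction of most, their number and median are no evidence of a shift. The median log2 fold change was -1.45, and -0.061 with the filter at 200 normalized counts. With limma 0 passed the adjusted threshold. At an unadjusted p-value under 0.05 from limma 1 was higher in serum, against 2.97% of all genes tested, and 3 were lower, against 3%. With edgeR 0 passed, and with DESeq2 5, against 1.93% of all genes tested. Of these 5, Hoxa9, Hoxa10, Hoxb13 and Hoxd9 were lower in serum and Gbx2 higher. Hoxd9 had normalized counts of 0 and 2.92 with serum against 74.7 and 128 with 2i, Hoxb13 had 8.0 and 1.94 with serum against 38.4 and 208 with 2i, and Hoxa10 had 6.0 and 5.83 with serum against 35.3 and 351 with 2i. HOX genes set position along the body axis. Hoxd9, Hoxb13 and Hoxa10 passed the filter through 2i alone, so their direction was in part required by it. The 2i replicates of Hoxb13 and of Hoxa10 lay far apart. Gbx2, a regulator of the early epiblast, reached the filter in both groups. It had 714 and 981 with serum against 157 and 124 with 2i (log2 fold change 2.58 ± 0.47 SE; p-values from limma 0.00124 unadjusted and 0.753 adjusted).

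Of 20 germline genes of the kind that PCGF6 complexes silence, 18 had a row and 16 passed the filter, 1 through 2i alone. With limma, edgeR and DESeq2 0 passed the adjusted threshold. With limma 1 was under 0.05 before adjustment, as lower in serum, against 3% of all genes in that direction. That gene was Dazl, an RNA-binding protein of germ cells, with normalized counts of 487 and 147 with serum against 1148 and 1773 with 2i (log2 fold change -2.41 ± 0.66 SE; p-values from limma 0.00965 unadjusted and 0.753 adjusted). Taf7l had 80.0 and 42.8 with serum against 171 and 133 with 2i, and Slc25a31 had 9.0 and 20.4 with serum against 59.2 and 48.5 with 2i. Slc25a31 is the gene that passed the filter through 2i alone, so its difference was in part required by the filter. Both serum values were below both 2i values for 4 of the 16 genes, Slc25a31 among them, against 19.4% of all genes tested, and above for 0, against 20.5%. The median log2 fold change was -0.30, and it ranged from -0.65 without 2i replicate 1 to -0.0079 without 2i replicate 2, with -0.072 without serum replicate 1 and -0.094 with the filter at 200 normalized counts. Dazl stood at -1.55 without serum replicate 2.

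**Figure D4:**
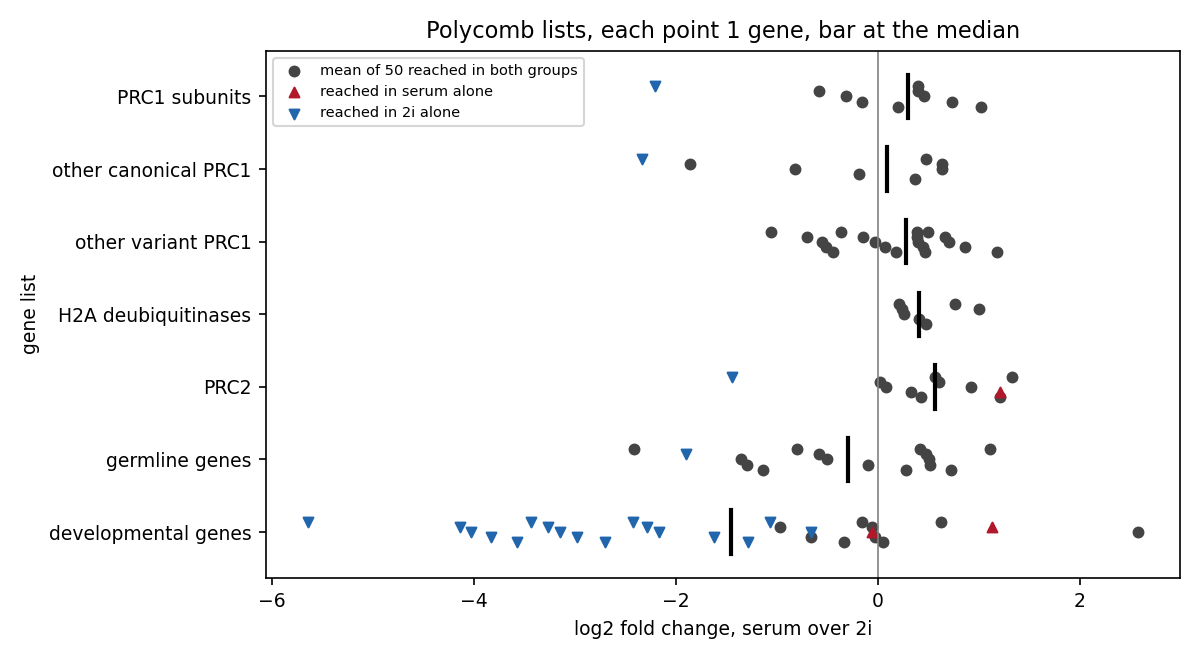
Log2 fold change of serum over 2i for the tested genes of 7 Polycomb lists, 1 point per gene, with a bar at each median and the marker showing in which group the mean of 50 normalized counts was reached. The PRC1 subunits centre at 0.30 and the developmental genes at -1.45, where 17 of 28 points reached the mean in 2i alone.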

How the data were processed

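RNA-seq of sorted G1-phase ESCs was used, with 2 serum and 2 2i libraries, grouped by their titles. According to the study's methods, the authors removed ribosomal RNA, sequenced single-end reads of 43 bases, aligned them to mm9 with Bowtie (build and aligner also stand in the submitters' processing notes), quantified transcripts with MMSeq and used DESeq2; versions are not given in the sources used here. The deposited table holds a signal: each library's gene counts, scaled by a single size factor. In each library 100% of the values were whole multiples of 1 step (tolerance 0.01), so whole reads were recovered. Estimated division of reads between related genes can affect paralogs, but at least 99.1% of the 43-base words of each member's coding transcripts occur in no other gene's (pseudogenes and strand were not examined). No other annotated gene overlaps a member.

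The 13005 genes that averaged 50 normalized counts or more in serum or in 2i entered 1 limma 3.58.1 fit (R 4.3.3) of log2(normalized count + 1), with a variance trend and without a replicate term. Benjamini-Hochberg adjustment covered all of them, and calls needed an adjusted p below 0.05. DESeq2 1.42.0, the program used in the study, was run on counts as an alternative (251 genes called), as was edgeR 4.0.16 (0 called). Both used the same adjusted threshold without a fold change cutoff. The study's own DESeq2 calls needed a log2 fold change above 1 with p under 0.05, so the numbers of calls cannot be compared. Positions and lengths came from GENCODE vM1, which describes mm9 and holds 14462 of the 14533 genes; levels per kilobase used the union of exons.

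The members and gene lists were chosen with earlier results of these data known. All 10 members are named, and 1 other gene of the planned lists is not reported here. Of lists over 10 genes the text names, among genes whose groups were separate, at most 3 per direction, by size of difference; Hoxa9 was named after its values were seen. Alternatives were pseudocounts of 0.5 and 5, other filters, scalings and tests, the replicate number as a block, and leaving out each library. A correction for GC content and length (mgcv 1.9.3) was added after the data were seen.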

Additional observations from a re-analysis of the deposited data

How the results depend on the processing

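The adjusted p-value of each of the 10 PRC1 genes stayed above 0.05 under each alternative run, so 0 were called throughout. Under a mean of at least 200 normalized counts only 7 of them could be tested. Directions turned for Pcgf2 (-0.26 with edgeR, -0.25 with DESeq2, and from -1.02 to 1.82 with 1 library left out), for Bmi1 (-0.69 to 0.37 with 1 left out) and for Pcgf1 (-0.89 to 0.26). The median log2 fold change of the 10 genes was 0.40 with the stricter filter and 0.17 with upper quartile scaling, where the median of all genes stood at 0.12 and -0.12. The GC content and length correction gave 0.25. Count models gave -0.046 with edgeR and -0.036 with DESeq2, where the median of all genes stood at -0.073 and -0.062. Leaving out each library gave 0.13 to 0.26. The cause was not tested.

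Libraries of both conditions carry replicate numbers 1 and 2. Across genes, replicate 2 minus replicate 1 in serum correlated with that in 2i (r = 0.480, or 0.307 once GC content and length were taken out), but 2 pairs are too few to treat equal numbers as a pairing. The replicate block left 0 PRC1 genes called, and the median stood at 0.25 with both the replicate block and the GC content and length correction. Over all genes the block gave 203 calls and its combination with that correction 4, against 2 without either and 0 with the correction alone or with any 1 library left out. In the lists it called 1 developmental gene (Gbx2) and 1 germline gene (Dazl). DESeq2 called 5 of the 28 developmental genes tested, against 1.93% of all genes tested. Of these, Hoxd9, Hoxb13 and Hoxa10 passed the filter through 2i alone, so this number is no evidence of a shift. The counts of called genes were the same in the other lists and settings, at 0. The ratio of the highest to the lowest level per kilobase and the Cbx7 share moved by less than the spread between replicates. With 2 libraries per group the unadjusted 95% intervals of the 10 genes reach at least 1 log2 unit to either side, and even the difference of -2.21 for Cbx8 did not pass after adjustment.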

Other observations

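Enzymes that remove ubiquitin from H2A with their partners, and PRC2, whose mark canonical PRC1 reads, were examined beside the PRC1 genes. Of 7 genes for H2A deubiquitinases or their partners, 0 passed the adjusted threshold or had an unadjusted p-value under 0.05 (limma). With edgeR or DESeq2 0 passed. All 7 log2 fold changes were above 0, as were 6536 of 13005 over all genes tested. Their median was 0.40, but 0.17 without serum replicate 2 and 0.88 without serum replicate 1. Both serum values were above both 2i values for Usp22 (normalized counts of 2227 and 2541 with serum against 1944 and 2021 with 2i) and Mysm1 (1121 and 1930 with serum against 801 and 936 with 2i), so for 2 of 7 against 20.5% of all genes.

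Of 11 PRC2 genes 0 passed the adjusted threshold with limma, edgeR or DESeq2, and the median log2 fold change was 0.57. Both serum values were above both 2i values for 3 of 11, against 20.5% of all genes, and below for 0, against 19.4%. At an unadjusted p-value under 0.05 from limma 2 were higher in serum, against 2.97% of all genes. These were Ezh2, the methyltransferase (normalized counts of 2344 and 3742 with serum against 1574 and 1045 with 2i; log2 fold change 1.21 ± 0.49 SE; adjusted p-value from limma 0.753), and Jarid2, a recruiting subunit (3882 and 8074 with serum against 2619 and 1898 with 2i; log2 fold change 1.33 ± 0.54 SE; adjusted p-value from limma 0.753). Phf19, a PCL subunit, had 68.0 and 138 with serum against 65.4 and 26.2 with 2i. Its groups were separate by a narrow margin, between serum replicate 1 and 2i replicate 1. It passed the filter through serum alone, so its difference was in part required by the filter. After the correction for GC content and length the PRC2 median was 0.090, and it was 0.24 without 2i replicate 1, 0.15 without serum replicate 2 and 1.01 without serum replicate 1. Jarid2 stood at 0.80 without serum replicate 2. Whether the PRC2 and PRC1 genes differ in their change was not tested.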
